A study of Homo sapiens with 4 samples.

Results

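The mRNA levels of 10 enzymes that make, inactivate or conjugate steroid hormones were followed in T47D cells, a human breast cancer line that expresses the PR. They were chosen by gene symbol and make up 10 of the 23287 symbols in the RNA-seq files. The cells were kept in RPMI with charcoal-stripped serum and received either 10 nM R5020, a synthetic progestin, or the vehicle ethanol (EtOH), and RNA was taken after 3 h. PR binding sites came from a separate ChIP-seq library of cells given 10 nM R5020 for 1 h, so binding was mapped only in treated cells. By the methods, the cells for ChIP were kept longer in charcoal-stripped serum than those for RNA. There was 1 library per condition of this single line, so differences below lack any check by replicate libraries and are given without p-values.

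Steroid hormones are controlled in their target cells by enzymes that work in opposing pairs. The 11β-hydroxysteroid dehydrogenases interconvert active cortisol and inactive cortisone, the 17β-hydroxysteroid dehydrogenases interconvert estrone and the stronger estrogen estradiol, and sulfotransferases store steroids as inactive sulfates from which steroid sulfatase frees them again. In the mammary gland these reactions set how much active hormone reaches the nuclear receptors, and in breast tumors much of the estradiol is made locally in this way.

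Levels are FPKM, fragments scaled to transcript length and library depth, summed over the transcripts of a gene. A log2 difference is the log2(FPKM + 1) in R5020 minus that in EtOH, which understates the change of low genes. A gene was retained when its FPKM reached 1 in either library, and 1.5-fold on this scale, a log2 difference of 0.585, served as the threshold. Of the 10 enzymes, 7 were retained. *HSD11B2* was past the threshold upwards and *HSD17B1* downwards, and *SRD5A1* lay just short of it. *HSD11B2* reached an FPKM of 1 only in R5020, so it was retained through the library in which it was higher. *HSD17B4*, *HSD17B8*, *SULT2B1* and *STS* differed by less than 1.5-fold, and *HSD11B1*, *HSD17B2* and *SULT1E1* were at or near 0 in both libraries. Of all 11018 retained genes, 7.67% passed the threshold upwards and 4.14% downwards. With 1 enzyme in each direction, their number says nothing particular about this family. The median log2 difference was −0.06 for the 7 retained enzymes and 0.01 for all retained genes.

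**Figure D1:**
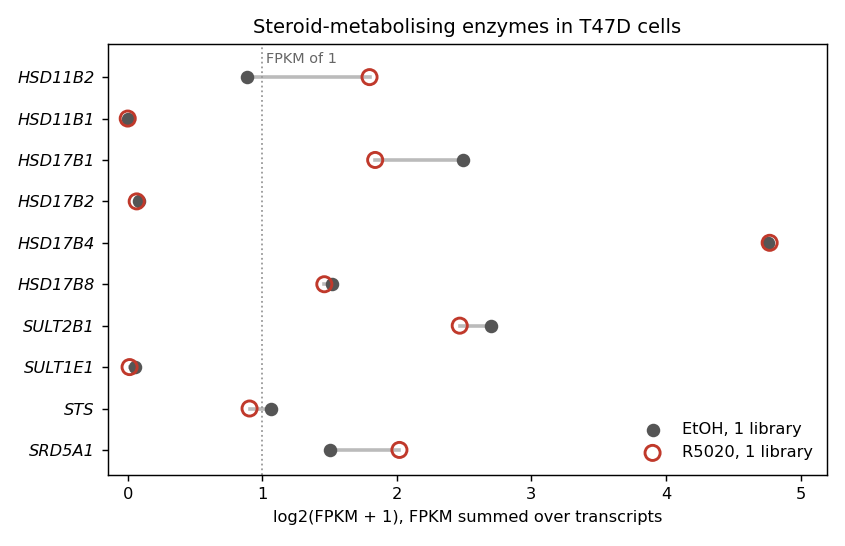
Level of each enzyme in the EtOH (filled) and the R5020 (open) library, as log2(FPKM + 1), with the dotted line at an FPKM of 1. *HSD17B4* stood highest at 26.0 and 26.3, *HSD11B2* and *HSD17B1* moved in opposite directions, and 3 enzymes lay at or near 0.

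By coverage multiplied by transcript length over a read length of 50 nt, the deposited transcripts held an estimated 35.2 M reads in EtOH and 36.2 M in R5020. The methods state clearly more mapped reads for both libraries, with EtOH as the deeper one. The estimated reads given for single genes below rest on coverage alone, and show the order of the depth behind a value rather than a count. All 10 luminal epithelial markers had an FPKM above 1 in R5020 and 8 in EtOH, where *KRT8* and *KRT18* were listed at 0 with a failed estimate. Of these 10 markers 4 were past 1.5-fold downwards, *FOXA1* from 64.3 in EtOH to 14.7 in R5020, *GATA3* from 253.2 to 126.3, and *ESR1* and *PGR*. The paper also measured *FOXA1* by RT-qPCR and reports it as lower after R5020. The share of all retained genes past 1.5-fold downwards was 4.14%. Of 25 markers of basal, fibroblast, immune and endothelial cells, 4 were retained, among them *COL1A1*, at 5.12 in EtOH and at 3.31 in R5020, and the summed FPKM was 4.34 and 3.43 for the basal, 7.98 and 5.31 for the fibroblast, 1.13 and 1.21 for the immune and 0.244 and 0.336 for the endothelial list. The part of other cells or of the luminal markers' differences in the levels below was not tested, and fewer expressing cells and less RNA per cell cannot be told apart. None of the transcripts of the 10 enzymes had a failed estimate.

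Of the 7 retained enzymes, the largest difference was that of an enzyme that acts on glucocorticoids. *HSD11B2*, which inactivates cortisol and so shields the mineralocorticoid receptor, had an FPKM of 0.851 with EtOH and of 2.48 with R5020, with a log2 difference of 0.91, or 2.91-fold without the pseudocount. It is a short gene with a single listed transcript on chromosome 16 (hg19, 67465036 to 67471454), and the values rest on an estimated 156 and 421 reads. It moved from rank 10970 to rank 8284 among all gene symbols, and so remained a gene of low level in both libraries. *HSD11B1*, which runs the reverse reaction and regenerates cortisol, was listed at 0 in both libraries for each of its 3 transcripts on chromosome 1 (209859525 to 209908295). *H6PD*, which supplies the cofactor of *HSD11B1* in the endoplasmic reticulum, stood at 2.66 and 3.23.

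Among the dehydrogenases that act on estrogens, *HSD17B1*, which reduces estrone to estradiol, had an FPKM of 4.63 with EtOH and of 2.58 with R5020, with a log2 difference of −0.65, or 0.557-fold without the pseudocount. Its single transcript on chromosome 17 (40703984 to 40707232) rested on an estimated 925 and 505 reads. The pseudogene *HSD17B1P1* has no entry under that symbol, and reads shared by both copies would have been discarded. *HSD17B2*, which oxidizes estradiol back to estrone, stood at 0.0598 and 0.0473, an estimated 7.52 and 5.47 reads, and no difference was detectable at this depth. In FPKM, which is per length, *HSD17B1* was the more abundant of this pair in both libraries.

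*HSD17B4*, a peroxisomal enzyme that oxidizes estradiol as well as fatty acids, had by far the highest level of the 10, with 26.0 in EtOH and 26.3 in R5020 (log2 difference 0.01). It ranked 996 and 1046 among all gene symbols. All of its FPKM was assigned to 1 of 3 transcripts, and the other two were listed at 0. *HSD17B8*, which can also oxidize estradiol and takes part in mitochondrial fatty acid synthesis, stood at 1.86 and 1.75 (log2 difference −0.06). It lies in the MHC region of chromosome 6 (33172419 to 33174607), of which the files hold 5 further haplotype copies that were all listed at 0, and since reads with several positions were discarded by the authors its level is uncertain. In contrast to *HSD17B1*, both of these oxidizing enzymes were at nearly equal levels in the 2 libraries.

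Of the enzymes of steroid sulfation, *SULT2B1*, which sulfonates cholesterol and other 3β-hydroxysteroids, stood at 5.48 in EtOH and at 4.53 in R5020 (log2 difference −0.23). Its 2 transcripts start 23.6 kb apart and encode proteins with different amino termini. The isoform SULT2B1b (NM_177973) carried most of the level, at 4.76 and 4.53, and SULT2B1a (NM_004605), which prefers pregnenolone, was estimated at 0.722 in EtOH and listed at 0 in R5020. The transcripts share most of their exons, so the division between them rests on the model of Cufflinks. *SULT1E1*, the high-affinity estrogen sulfotransferase, was at 0.0364 and 0.00959, an estimated 3.25 and 0.825 reads, and no fold is given. *STS*, the sulfatase that frees estrone and dehydroepiandrosterone from their sulfates, stood at 1.09 in EtOH and at 0.873 in R5020 (log2 difference −0.16), on either side of the limit of 1 for retention.

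*SRD5A1*, the 5α-reductase that converts testosterone to dihydrotestosterone and also reduces progesterone, had an FPKM of 1.84 with EtOH and of 3.05 with R5020, with a log2 difference of 0.51. Without the pseudocount this was 1.66-fold, so the scale decides whether it passes 1.5-fold. The estimated reads were 382 and 624. Its pseudogene *SRD5A1P1* was listed at 0.0149 and 0, and reads shared by both copies would have been discarded. By level in EtOH the order was *HSD17B4*, *SULT2B1*, *HSD17B1*, *HSD17B8*, *SRD5A1*, *STS*, *HSD11B2*, *HSD17B2*, *SULT1E1* and *HSD11B1*. In R5020 *SRD5A1*, *HSD17B1* and *HSD11B2* stood next to each other at 3.05, 2.58 and 2.48, below *SULT2B1* and above *HSD17B8*. With 1 library per condition there is no spread by which neighbours in this order could be separated.

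**Figure D2:**
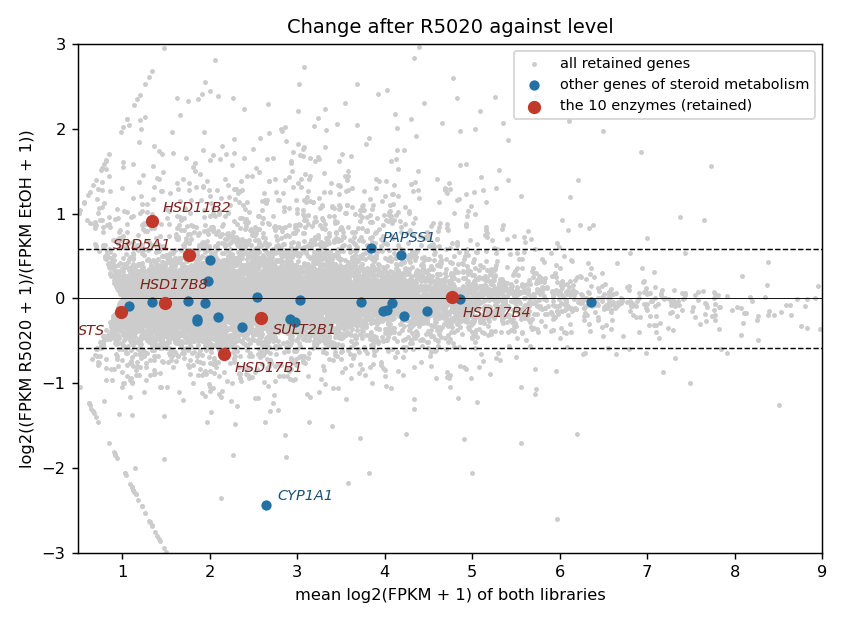
Log2 difference between R5020 and EtOH against the mean log2(FPKM + 1) of both libraries, with dashed lines at 1.5-fold. Grey points are the 11018 retained genes (86 fall outside the axes), blue points the 25 other retained genes of steroid metabolism and red points the 7 retained enzymes. *HSD11B2* lies above and *HSD17B1* below the lines, and *CYP1A1* has the largest difference of the blue points.

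The authors deposited an interval with each FPKM, which covers the uncertainty of the estimate in that library and not the spread between cultures. For *HSD11B2* it ran from 0.260 to 0.595 in EtOH and from 0.852 to 1.42 in R5020. For *HSD17B1* it ran from 2.44 to 3.26 and from 1.30 to 1.87, and for *SRD5A1* from 0.953 to 1.48 and from 1.61 to 2.35. The intervals of the 2 conditions did not overlap for these 3 transcripts, 2 of them higher and 1 lower in R5020, and they overlapped for the other 4 of the 7 retained transcripts of the enzymes. SULT2B1a, below an FPKM of 1 in both libraries, also had intervals that did not overlap, from 0.297 to 1.12 and from 0 to 0.066. Over 13579 retained transcripts with a status of OK, 26.8% were higher and 21.3% lower in R5020 with intervals that did not overlap, so this is a common outcome. For the same 3 genes the FPKM lay above its own interval in both libraries, as it lay outside the interval for 33.4% of the retained transcripts. From the midpoints of the intervals the ratio of R5020 to EtOH was 2.66 for *HSD11B2*, 0.556 for *HSD17B1* and 1.63 for *SRD5A1*, which is close to the ratios of the FPKM. However, as the midpoints are lower and the pseudocount of 1 weighs more on them, the log2 differences became 0.583 for *HSD11B2* and −0.575 for *HSD17B1*, both just short of the threshold of 0.585.

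**Figure D3:**
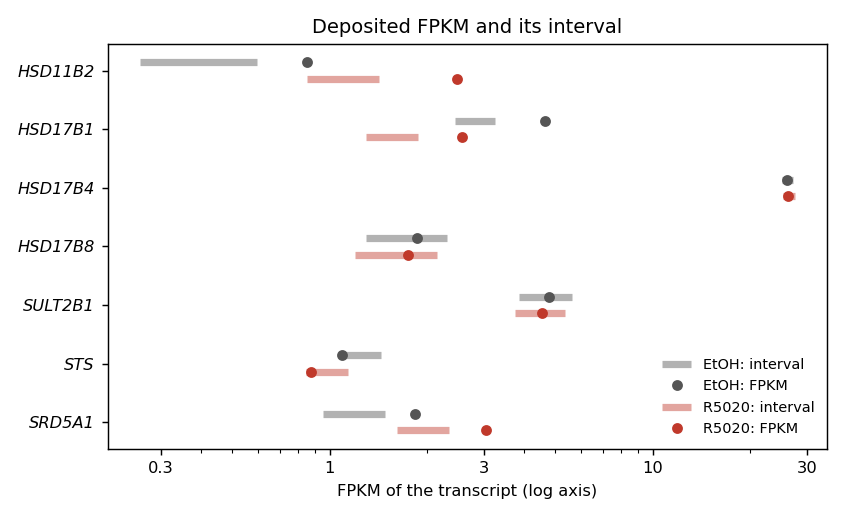
Deposited FPKM (points) and interval (bars) of the 7 retained transcripts of the enzymes, in EtOH (grey) and R5020 (red), on a log axis. The bars of *HSD11B2*, *HSD17B1* and *SRD5A1* do not overlap between conditions, and their points lie to the right of the bars.

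Some loci hold other transcripts. In the GENCODE annotation of GRCh37, which is the hg19 build, *HSD17B1* is overlapped on the opposite strand by the long noncoding RNA *HSD17B1-AS1* and on its own strand by another one, *HSD11B2* at its start by an opposite-strand noncoding RNA, and *SULT2B1* by one along most of its length. *HSD11B1* and *HSD17B2* also have antisense RNAs, and *SULT1E1* overlaps a protein-coding gene model on its own strand. It is not stated in the sources used here whether abundances were estimated with the strand of the reads. Whether reads of a gene and of its antisense partner were kept apart is therefore not known.

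The PR is a ligand-activated transcription factor that binds hormone response elements, palindromes of GNACA and TGTNC with 3 bases between them, which it shares with the glucocorticoid, mineralocorticoid and androgen receptors. To examine binding near the enzymes, sites in or within 50 kb of the extent of a gene were collected. There were 7 such sites at 5 of the 10 enzymes, *HSD11B2*, *HSD11B1*, *HSD17B2*, *SULT2B1* and *SRD5A1*. *HSD17B1*, *HSD17B4*, *HSD17B8*, *SULT1E1* and *STS* had none. As 45.6% of all gene symbols have a site at this distance, 5 of 10 is close to the background, and so is 3 of the 7 retained enzymes beside 52.7% of all retained genes. The enzyme that was higher after R5020 had sites and the enzyme that was lower had none, but with 1 gene each this is a description of these loci only.

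Each site carries a MACS score, the −log10 of its p-value multiplied by 10, of which the lowest over all 11181 sites is 50 and the median 74.5. *HSD11B2* had a pair of sites upstream, at 67432937 to 67433195 with a score of 84.4 and at 67434861 to 67435457 with a score of 69.6, both in introns of *ZDHHC1*. Their nearest edges were 31.8 kb and 29.6 kb from *HSD11B2*. The strongest site was in an intron of *HSD17B2* itself on chromosome 16, at 82083076 to 82083476 and 14.4 kb downstream of the start. Its score of 152.5 ranked 431 of all sites, in a gene with an FPKM of 0.0598 and 0.0473. No retained gene lay within 50 kb of this site.

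*SULT2B1* had a site in one of its own introns on chromosome 19 with a score of 64.7, 17.3 kb downstream of the nearer of its starts. A second site, at 49149355 to 49149930 with a score of 92.7, lay 46.7 kb past the end of the gene and overlapped *CA11* and *SEC1*. *SRD5A1* had 1 intergenic site at 6703074 to 6703457 on chromosome 5, with a score of 87.2 and 33.4 kb past its end, which is 69.8 kb from its start. The site near *HSD11B1*, at 209823249 to 209823682 in an intron of *LAMB3* and 35.8 kb upstream, had a score of only 51.9. Of the 7 sites, 4 were at or above the median score of all sites, and the site near *HSD11B1* was close to the lowest score deposited.

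**Figure D4:**
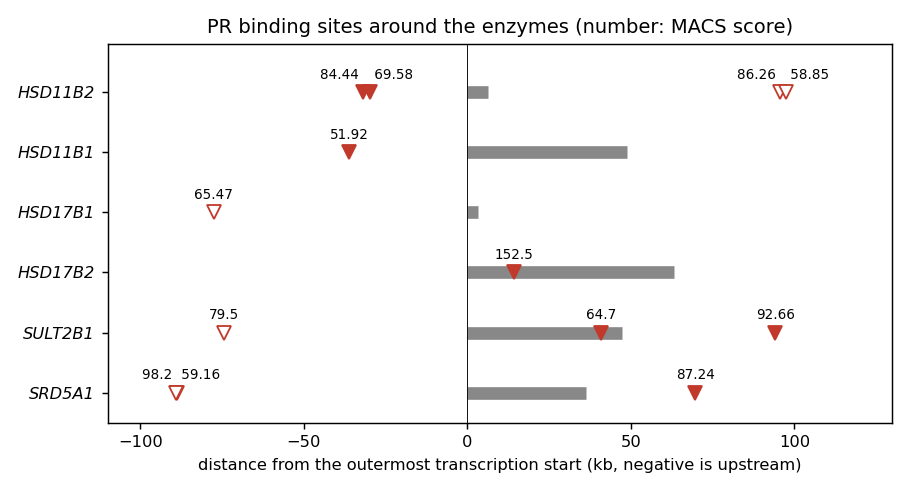
PR binding sites around the 6 enzymes with a site within 100 kb, drawn as the distance of the site midpoint from the outermost transcription start of the enzyme in kb. Grey bars are the genes, filled triangles the 7 sites in or within 50 kb, open triangles those farther away, and numbers the MACS scores. The site in *HSD17B2*, at 152.5, has the highest score, and *HSD17B1* has only an upstream site, at −77.5 kb.

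The same sites lie near other genes. Within 50 kb of them there were 19 other gene symbols, of which 5 were retained and 2 differed by at least 1.5-fold. Over all retained genes 7.67% passed the threshold upwards and 4.14% downwards, and 5 neighbours are too few to set beside these shares. *PAPD7*, 11.3 kb from the site beyond *SRD5A1*, stood at 10.7 in EtOH and at 17.0 in R5020 (log2 difference 0.62). It lies nearer to the site than *SRD5A1*. *RPL18*, a ribosomal protein gene near the *SULT2B1* sites, had 48.4 and 29.3 (log2 difference −0.71), a value that is uncertain because ribosomal protein genes have many near-identical copies. *ZDHHC1*, which holds the sites upstream of *HSD11B2*, was at 0.649 in EtOH and 1.14 in R5020 (log2 difference 0.38), and *ATP6V0D1* on the other side of *HSD11B2* was at 13.2 and 14.3 (0.11). Which gene a site acts on was not tested.

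The sequences of the sites at *HSD11B2* and *HSD17B2* are shown because they lie at the retained enzyme with the largest difference and at the site with the highest score. They are the plus strand of hg19, 5′ to 3′, the whole site where it is no longer than 300 bases and otherwise 300 bases around its midpoint. Capitals mark the hexamer AGAACA (or TGTTCT, the same hexamer on the other strand), which may overlap the element, and the best match to the response element, in which all named bases but 1 are present.
HSD11B2 upstream site with a score of 84.4, chr16:67432937-67433195: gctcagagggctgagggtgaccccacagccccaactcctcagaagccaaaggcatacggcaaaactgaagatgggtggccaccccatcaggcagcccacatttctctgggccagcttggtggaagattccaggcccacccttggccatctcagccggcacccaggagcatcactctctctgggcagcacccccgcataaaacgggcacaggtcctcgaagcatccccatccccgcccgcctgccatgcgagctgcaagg
HSD11B2 upstream site with a score of 69.6, chr16:67435010-67435309: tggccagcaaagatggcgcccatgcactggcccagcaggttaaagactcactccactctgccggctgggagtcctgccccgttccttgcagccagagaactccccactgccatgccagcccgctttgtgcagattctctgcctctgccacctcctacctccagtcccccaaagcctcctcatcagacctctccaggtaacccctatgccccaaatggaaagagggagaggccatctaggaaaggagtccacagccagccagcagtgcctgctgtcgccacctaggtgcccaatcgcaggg
HSD17B2 intron site, chr16:82083127-82083426: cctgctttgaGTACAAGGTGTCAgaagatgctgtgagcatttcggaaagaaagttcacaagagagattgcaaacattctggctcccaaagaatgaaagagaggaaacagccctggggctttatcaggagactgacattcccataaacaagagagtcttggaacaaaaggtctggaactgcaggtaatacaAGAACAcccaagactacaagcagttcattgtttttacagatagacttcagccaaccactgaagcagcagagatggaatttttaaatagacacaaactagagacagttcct

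The full element was present in none of the 7 sites. It is rare in general, with 268 of 11178 sites (2.40%) and 0.823% of windows of equal length 5 kb away, so the absence of these letters was the usual outcome. With 1 of the 8 named bases allowed to differ, 1 of the 7 sites held it, the one in *HSD17B2*, beside 21.8% of all sites and 14.8% of the windows 5 kb away. Both strands were searched. The hexamer was present in 2 of the 7 sites, the one in *HSD17B2* among them, and in 25.2% of all sites and 27.4% of the windows. The GC content of the *HSD17B2* site was 43.6%, and that of the other 6 ranged from 51.8% to 67.2%, with a median of 56.7% over all sites. A match is a description of the sequence and not evidence of contact by the receptor.

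To place the 10 enzymes in the pathway, 88 other genes of steroid metabolism in 9 classes were examined, all of which were found in the files. Of these, 25 were retained, 1 passed 1.5-fold upwards and 1 downwards, and 30 were listed at 0 in both libraries. Beside the 7.67% upwards and 4.14% downwards of all retained genes, 1 of 25 in each direction says nothing particular. The median log2 difference of the 25 was −0.06. *PAPSS1*, which makes the activated sulfate that all sulfotransferases use, stood at 10.7 in EtOH and at 16.7 in R5020 (log2 difference 0.60), whereas its homologue *PAPSS2* stood at 12.5 and 12.1. *CYP1A1*, which hydroxylates estradiol and is a target of the aryl hydrocarbon receptor, had 13.6 and 1.69 (log2 difference −2.44). *CYP1B1*, which hydroxylates estradiol at another position, was the most abundant of the 88 genes, with 82.0 and 79.8.

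None of the 9 genes that make steroids from cholesterol was retained, *CYP19A1* (aromatase), *CYP11A1* and both *HSD3B* genes being listed at 0, and the highest of them was *STAR* at 0.150 in EtOH. Likewise none of the 16 glucuronosyltransferases was retained, with *UGT2B15* the highest at 0.0937 in EtOH, although 12 were listed at 0 in both libraries and the *UGT1A* genes share most of their exons. Of the 10 other genes of the 17β-hydroxysteroid dehydrogenase class, 5 were retained, led by *HSD17B12* at 19.0 and 16.3, and none passed 1.5-fold. Of the 10 other reductases only *SRD5A3* was retained, at 2.93 and 2.78, and the *AKR1C* genes, which reduce ketosteroids, were all listed below 0.1. Since the authors discarded reads with several positions, low values of genes with close copies are uncertain in all of these classes. Of the 12 sulfatases and their activators 7 were retained, with *SUMF2* highest at 28.3 and 28.0. All 5 electron donors were retained, led by *CYB5A* at 22.5 and 20.3, and none passed 1.5-fold.

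A PR binding site in or within 50 kb was found for 23 of the 88 genes (26.1%) and for 11 of the 25 retained ones (44%), beside the 45.6% of all gene symbols and the 52.7% of all retained genes. Neither *PAPSS1* nor *CYP1A1* was among them. Many of these genes lie in clusters and share their surroundings, so they are not independent. Of the 6 steroid receptors, 5 were retained, and 2 were past 1.5-fold downwards, *PGR* at 23.7 and 15.3 (log2 difference −0.60) and *ESR1* at 17.2 and 10.9 (−0.61). Over all retained genes 4.14% passed downwards, and 5 receptors are too few to set beside this share. In each library 1 *PGR* transcript had a status other than OK, which was LOWDATA in EtOH, so the *PGR* values are uncertain. *NR3C2*, the mineralocorticoid receptor that *HSD11B2* shields, was at 0.594 in EtOH and 1.15 in R5020 (0.43), which is under 1.5-fold on this scale. Like *HSD11B2* it was retained only through the R5020 library, and its estimated reads were 322 and 605. The pseudocount weighs on values this low, so the scale decides whether *NR3C2* passes 1.5-fold.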

How the data were processed

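For RNA-seq the authors trimmed 50-nt paired reads where needed with Trimmomatic, mapped them to hg19 by TopHat2 without reads at several positions, and deposited, per RefSeq transcript, the FPKM from Cufflinks with an interval, a status and a coverage. For ChIP-seq they mapped reads with Bowtie 1.1.2 and deposited MACS sites with a score. The deposited FPKM carry no counts, so no count test was used, and the deposited coverage served as a signal of depth only. The input library was not analysed here.

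From these files, FPKM were summed per gene symbol, with a pseudocount of 1 for log2 differences. Site starts were taken as counted from 0, as in BED files, and printed from 1, like transcript starts, of which 15909 then matched GENCODE. Sequences came from GRCh37, and the motif search used the 11178 sites on its sequences. The sequence of the site inside *SULT2B1* is not reported here. Every enzyme is named, as are other pathway genes past 1.5-fold, the highest of a class, and changed neighbours of sites. All others were named after their values were seen. The enzymes and lists were chosen with earlier results of these data known. Alternatives were another pseudocount, scaling, filter, threshold, distance, score and motif. Scripts were tested on simulated data. Python 3.11.15, pandas 2.3.3, numpy 2.4.6 and pysam 0.24.0 were used.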

Additional observations from a re-analysis of the deposited data

How the results depend on the processing

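The direction of *HSD11B2*, *HSD17B1* and *SRD5A1* was the same under every alternative tried, and the size moved around the 1.5-fold threshold. With a pseudocount of 0.1, 2 of the enzymes were at least 1.5-fold higher, as *SRD5A1* reached a log2 difference of 0.70, and so were 2 of the other pathway genes. At a threshold of 2-fold, 0 enzymes were higher and 0 lower, and of the other pathway genes 0 were higher and 1 was lower. From the midpoints of the FPKM intervals, an alternative chosen after seeing the data, 0 enzymes were higher and 0 lower. The share of all retained genes was taken only at the main setting, so these counts have none beside them. Without a pseudocount the log2 difference was 1.54 for *HSD11B2* and 0.73 for *SRD5A1*, and with coverage in place of FPKM that of *SRD5A1* was 0.65. The counts of enzymes were the same after rescaling the libraries to each other, with only the highest transcript of a gene, without the filter and with a filter of FPKM 2. Within 10 kb there were 2 PR binding sites at 2 enzymes and within 100 kb 13 sites, and with a score of 100 or more 1 site at 1 enzyme. Within 50 kb of a transcription start there were 5 sites at 4 enzymes, without the site of *SRD5A1* and the second one of *SULT2B1*. With all named bases but 1 matching, 1 site held the element. No replicate could be left out. No paired analysis was possible because each condition has 1 library. The depth leaves *HSD17B2* and *SULT1E1* at fewer than 10 reads as estimated from coverage.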
